A study of Homo sapiens with 9 samples.

Results

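The genes described are those for mitochondrial ribosomal proteins, taken as every row whose symbol is MRPL or MRPS followed by a number and at most 1 letter from A to C. The rule found 77 genes of 26485 in all, 48 for the large subunit (MRPL) and 29 for the small subunit (MRPS), and it used no measured value. The cells were MDA-MB-231, an established line from a human breast cancer of the triple-negative class, grown in DMEM with fetal bovine serum and antibiotics. The 9 libraries fall into 3 groups of 3: cells with a nonspecific (NS) shRNA, cells with ASAH1 shRNA #1 and cells with ASAH1 shRNA #2. ASAH1 encodes acid ceramidase, which cleaves ceramide, and both ASAH1 hairpins were stably expressed. The study set each hairpin against NS shRNA to find genes that change when ASAH1 is lost. All knockdown values rest on 1 line and 1 NS hairpin. The methods call the 3 replicates of a group biological replicates but do not describe them as separately derived lines. The p-values may therefore measure technical spread only.

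The mitochondrial ribosome translates the small set of messenger RNAs encoded by mitochondrial DNA, all of them for subunits of the oxidative phosphorylation complexes. Its ribosomal RNAs come from the mitochondrial genome, whereas every one of its proteins is encoded in the nucleus, made in the cytosol and imported. The small subunit decodes the messenger RNA and the large subunit joins the amino acids, and both hold proteins inherited from bacteria together with proteins found only in mitochondria. Defects in several of these genes cause inherited disorders of oxidative phosphorylation. In tumours, mitochondrial translation is studied as a source of respiratory capacity.

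The deposited value is a normalized count, that is a read count divided by a size factor for its library, in 1 table per ASAH1 hairpin. The 3 NS shRNA libraries enter both tables, so the comparisons share their controls, and NS values differ between tables by scale only. Reads on genes came to 30989598 to 34867548 per library with NS shRNA, 23806003 to 39791698 with shRNA #1 and 35653318 to 49659106 with shRNA #2. ASAH1 itself had normalized counts of 4436, 4512 and 4518 with NS shRNA and 1268, 1365 and 1348 with shRNA #1, a log2 fold change of -1.76 (SE 0.05, adjusted p = 9.49e-09, limma). With shRNA #2 the counts were 779.6, 807 and 762 against 4787, 4898 and 4871, a log2 fold change of -2.63 (SE 0.06, adjusted p = 5.42e-10, limma). The line's markers VIM, CD44, KRT8, KRT18 and CD274 were all read. On the scale of all 9 libraries they summed to 124793 to 128153 with NS shRNA. The sums were 100180 to 101489 with shRNA #1 and 92951 to 95529 with shRNA #2. KRT8 lay at 13618 to 14096 with NS shRNA, 4863 to 4910 with shRNA #1 and 7843 to 8246 with shRNA #2. CD274 went the other way, at 607 to 757, 1860 to 2050 and 1548.5 to 1829. ESR1 and PGR had at most 2 reads in any library, and PTPRC, CD3E, CDH5, PDGFRA and DCN at most 8. The endothelial marker PECAM1 and the fibroblast marker LUM were read more, with up to 102 and 140 reads. ERBB2, a receptor low in this class of tumour, was read at normalized counts of 2044 to 3547 on the scale of all 9 libraries. CD14, a monocyte marker, lay at 909 to 1113 with NS shRNA, 217 to 246 with shRNA #1 and 992 to 1154 with shRNA #2. The summed level of the blood and endothelial markers was 1013 to 1229, 276 to 319 and 1063 to 1197, and that of the fibroblast markers 140.0 to 152, 104 to 116 and 36.4 to 51.8. Their part in the results was not tested. In RNA from whole cultures, fewer cells expressing a gene and less RNA per cell cannot be told apart.

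Short motifs before the start sites of these genes were searched in the RefSeq promoter windows of GRCh38.p14, which run from 250 bases before to 50 after a start. Windows were found for 68 of the 77 genes, 84 windows in all. MRPL2, MRPL10, MRPL13, MRPL15, MRPL21, MRPL23, MRPL35, MRPS28 and MRPS36 had no entry. The letters CCGGAAG, the core read by ETS factors such as GABPA, stood on either strand in 38.1% of the member windows, in 10.3% of all 35116 RefSeq windows and in 16.1% of the 15176 windows of tested genes. The letters AAGATGGC, read by YY1, stood in 27.4% of the member windows, 2.89% of all windows and 4.60% of those of tested genes. The NRF1 palindrome, with any base at its centre after GCGCA, stood in 11.9%, 5.78% and 9.40%. The shares for GGGCGG, the GC box, were 59.5%, 45.0% and 64.9%, for CCAAT 33.3%, 34.6% and 34.3%, and for CACGTG, the E-box, 10.7%, 7.26% and 9.19%. Both strands were read for each, and the motifs have different letters but can overlap. The sequences below show such matches before members whose values follow, written 5′ to 3′ on the gene's strand with the matched letters in capitals. All of them end before the RefSeq start, but the stretches of MRPL43 and MRPL52 overlap exons annotated in GENCODE v44. A match is a run of letters and not a shown binding site.
MRPL20, ETS letters at 2 places on the gene's strand, chr1:1407294-1407339 (minus strand): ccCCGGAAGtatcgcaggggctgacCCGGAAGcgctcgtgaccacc
MRPL54, ETS letters on the opposite strand, chr19:3762636-3762681 (plus strand): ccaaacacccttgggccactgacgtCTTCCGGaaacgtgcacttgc
MRPS10, ETS letters on the gene's strand, chr6:42217862-42217908 (minus strand): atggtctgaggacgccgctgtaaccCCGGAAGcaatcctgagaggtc
MRPS22, ETS letters on both strands, chr3:139343882-139343938 (plus strand): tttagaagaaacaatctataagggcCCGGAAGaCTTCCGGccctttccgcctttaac
MRPL43, ETS letters on the gene's strand, chr10:100987499-100987525 (minus strand): cgtcccggaaCCGGAAGcctcgaggtt
MRPL52, YY1 letters on the gene's strand, chr14:22829779-22829806 (plus strand): acgatgacccAAGATGGCggagccgtga
MRPL36, NRF1 letters on the opposite strand, chr5:1799913-1799972 (minus strand): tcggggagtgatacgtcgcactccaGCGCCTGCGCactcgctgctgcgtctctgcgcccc
MRPL34, NRF1 letters on the gene's strand, chr19:17305612-17305652 (plus strand): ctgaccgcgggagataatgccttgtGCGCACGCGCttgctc

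**Figure D1:**
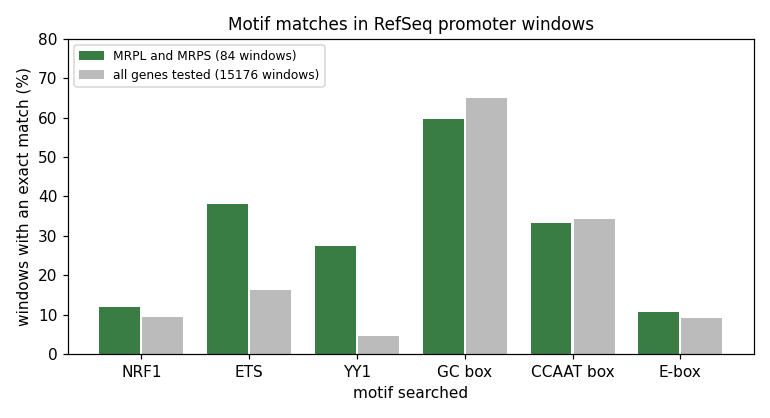
Share (%) of RefSeq promoter windows that hold an exact match to each motif on either strand, for the 84 windows of MRPL and MRPS genes (green) and the 15176 windows of all tested genes (grey). The green bar stands above the grey bar for ETS (38.1% and 16.1%) and YY1 (27.4% and 4.60%), and near it for the CCAAT box.

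Members with and without these letters moved in both directions. The 29 members with ETS letters had 6 higher and 6 lower with shRNA #1 and 8 higher and 8 lower with shRNA #2, with median log2 fold changes of 0.01 and 0.04. Of the 21 members with YY1 letters, 9 were higher and 3 lower with shRNA #1 (median 0.11), and 11 were higher and 3 lower with shRNA #2 (median 0.21). The 9 members with NRF1 letters had 5 higher and 1 lower with shRNA #1 (median 0.18) and 4 higher with shRNA #2 (median 0.17). Another 21 members had a window with none of these 3 motifs, and 7 of them were higher and 5 lower with shRNA #1 (median -0.01), 10 higher and 3 lower with shRNA #2 (median 0.20). These are counts at an adjusted p below 0.05 from limma, which 32.8% of all genes tested passed as higher and 33.3% as lower with shRNA #1, and 33.5% and 33.4% with shRNA #2.

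All 77 members were read in every library, and all passed the filter of a mean normalized count of at least 10. Levels were compared between genes as normalized counts per kilobase of the canonical GENCODE v44 transcript, on 1 scale for all 9 libraries. With NS shRNA the median level was 1508 per kilobase over the large subunit and 1007 over the small subunit. In the large subunit MRPL12, the stalk protein that recruits translation factors, was highest at 4789.7, followed by MRPL51 at 4097 and MRPL41 at 3969.6. MRPL42 was lowest at 160.4, on a canonical transcript of 15557 bases. In the small subunit MRPS6, the homologue of bacterial S6, stood apart at 13646, against 2844 for MRPS34 in second place. MRPS24, the homologue of bacterial S3 at the messenger entry, was lowest at 17.6, but 90.9% of its canonical exons lie within a readthrough gene, and reads shared by genes may be missing from its count. Between the 3 NS libraries the coefficient of variation had a median of 7.42% over the large and 5.53% over the small subunit, with the highest values for MRPL41 (18.6%) and MRPS24 (26.4%). MRPS24 rests on 10 to 54 reads per library, MRPL23 had at least 82, and each other member had at least 319 reads in every library.

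With ASAH1 shRNA #1 the large subunit genes moved both ways. Of 48 tested, 16 were higher and 10 lower than with NS shRNA (adjusted p below 0.05, limma on log2(normalized count + 1)), and 22 did not pass. The median log2 fold change was 0.03, beside 0.00 over all 14341 genes tested, of which 66.1% were called, 32.8% higher and 33.3% lower. MRPL10, which anchors the stalk on the large subunit, rose most. Its normalized counts were 1385, 1302 and 1332 with NS shRNA and 2285, 2199 and 2336 with shRNA #1, a log2 fold change of 0.76 (SE 0.05, adjusted p = 1.76e-06, limma). All 3 knockdown libraries lay above all 3 NS libraries. MRPL2, an rRNA-binding protein near the peptidyl transferase centre, had 1722, 1638 and 1597 and then 2499, 2569 and 2832, a log2 fold change of 0.67 (SE 0.06, adjusted p = 1.05e-05, limma), again with no overlap. MRPL21 and MRPL36, both inherited from bacteria, completed the 4 largest rises, with log2 fold changes of 0.35 (adjusted p = 0.00613, limma) and 0.35 (adjusted p = 0.000695, limma).

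The largest fall in the large subunit with shRNA #1 was that of MRPL16, a protein next to the peptidyl transferase centre. It had 2488, 2378 and 2049 with NS shRNA and 1347, 1355 and 1528 with shRNA #1, a log2 fold change of -0.71 (SE 0.08, adjusted p = 5.05e-05, limma). The groups did not overlap, and the lowest of the NS values was that of replicate 3. MRPL23, which sits at the exit of the peptide tunnel in bacteria, had 190.5, 178 and 174 against 109.6, 119 and 121, a log2 fold change of -0.63 (SE 0.10, adjusted p = 0.000492, limma). MRPL55 fell by 0.53 on the log2 scale (adjusted p = 0.0107, limma), from 851, 799.8 and 606 to 427, 536 and 599.6. Its NS replicate 3 lay only just above the highest knockdown library. MRPL34, a very small rRNA-binding protein, had 2032, 1899 and 1805 and then 1282, 1351 and 1428, a log2 fold change of -0.50 (SE 0.06, adjusted p = 0.000105, limma). MRPL44, whose fold is that of an RNase III domain, fell by 0.35 (adjusted p = 0.00571, limma). MRPL38 was called lower at -0.35 (adjusted p = 0.0337, limma) with overlapping groups, and MRPL52 higher at 0.30 (adjusted p = 0.0359, limma). Both calls were lost when single libraries were left out, for MRPL38 any of NS replicates 1 and 2 and shRNA #1 replicates 1 and 2, for MRPL52 any of NS replicates 2 and 3 and shRNA #1 replicates 2 and 3. They were also lost with the replicate number as a block (adjusted p = 0.0809 for MRPL38 and 0.094 for MRPL52, limma) and without the intensity trend (adjusted p = 0.0925 and 0.0928, limma).

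**Figure D2:**
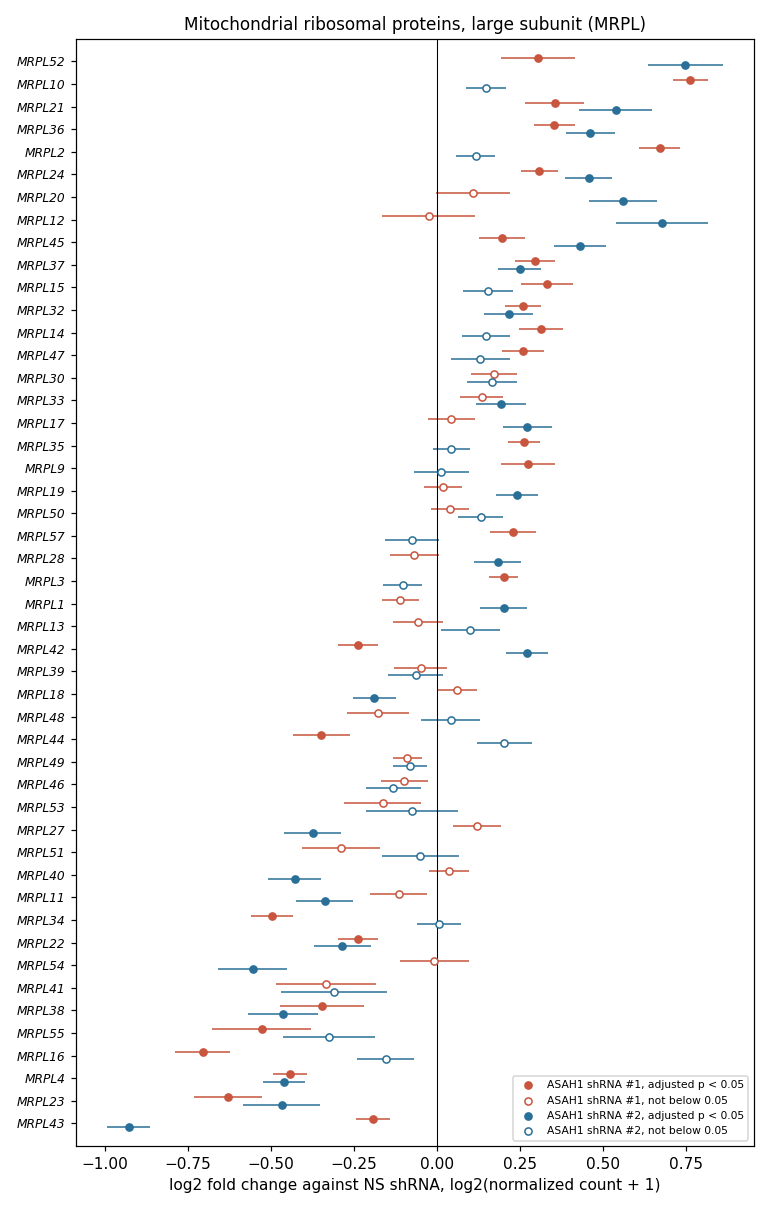
Log2 fold change against NS shRNA (horizontal axis) of the 48 MRPL genes with ASAH1 shRNA #1 (red) and #2 (blue), points with standard errors, filled where the limma adjusted p was below 0.05. Values run from -0.71 (MRPL16) to 0.76 (MRPL10) with shRNA #1 and from -0.93 (MRPL43) to 0.75 (MRPL52) with shRNA #2, and most lie within 0.5 of 0.

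In the small subunit, 11 of 29 genes were higher with shRNA #1, 6 were lower and 12 did not pass, with a median log2 fold change of 0.04. Among all genes tested the shares were 32.8% higher and 33.3% lower. With the replicate number as a block, 7 of the 29 were higher and 4 lower, and whether the numbers pair these libraries was not settled. MRPS25, a protein of the small subunit found only in mitochondria, had the largest log2 fold change of all 77 genes. That of MRPS24 was 0.80, was not called, and is made smaller by the pseudocount of 1. MRPS25 had 1604, 1439.7 and 1465 with NS shRNA and 2513, 2754 and 2697 with shRNA #1, a log2 fold change of 0.82 (SE 0.06, adjusted p = 2.91e-06, limma). MRPS10, the homologue of bacterial S10, had 3460.0, 3453 and 3488 and then 5235, 5306 and 5398, a log2 fold change of 0.62 (SE 0.04, adjusted p = 1.71e-06, limma). Neither gene's groups overlapped, and the 3 NS values of MRPS10 differed by little. MRPS18B rose by 0.51 (adjusted p = 2.87e-05, limma), MRPS30 by 0.50 (adjusted p = 8.22e-05, limma) and MRPS16, a gene of inherited respiratory chain deficiency, by 0.46 (adjusted p = 3.41e-05, limma). For MRPS16 the counts were 4231, 4425 and 4007 and 5708, 5744 and 5954.

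Of the small subunit genes that fell with shRNA #1, MRPS6 had the largest log2 fold change, described further on. MRPS22, another gene of inherited respiratory chain deficiency, had 1577, 1696 and 1490.2 with NS shRNA and 1072, 1075 and 1151 with shRNA #1, a log2 fold change of -0.53 (SE 0.06, adjusted p = 7.04e-05, limma). MRPS26, found only in mitochondria, had 2127, 2121 and 1739 and then 1224, 1423 and 1594, a log2 fold change of -0.50 (SE 0.11, adjusted p = 0.00245, limma). Both fell below the range of the NS libraries. MRPS28 was called lower at -0.29 (adjusted p = 0.0241, limma), a call lost without NS replicate 1, NS replicate 2 or shRNA #1 replicate 1, with the replicate block (adjusted p = 0.0605, limma) and without the intensity trend (adjusted p = 0.0512, limma). The count of 6 lower genes became 3 without NS replicate 1 and also without NS replicate 2. Over both subunits, 46 of 77 genes had knockdown libraries that did not overlap the NS libraries, 30 higher and 16 lower, beside 69.2% of all genes tested (34.5% higher and 34.7% lower).

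**Figure D3:**
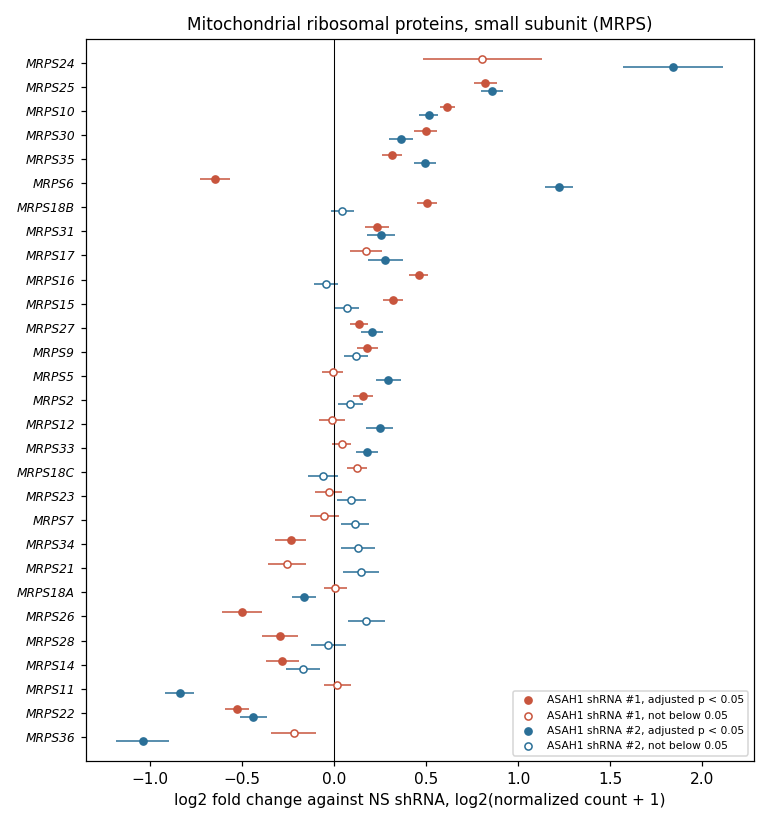
Log2 fold change against NS shRNA (horizontal axis) of the 29 MRPS genes with ASAH1 shRNA #1 (red) and #2 (blue), points with standard errors, filled where the limma adjusted p was below 0.05. MRPS25 and MRPS10 lie right of 0 with both hairpins, MRPS22 left of 0 with both, and MRPS6 lies at -0.65 with shRNA #1 and 1.22 with shRNA #2.

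With ASAH1 shRNA #2, 15 of the 48 large subunit genes were higher and 10 lower than with NS shRNA, and 23 did not pass. Their median log2 fold change was 0.07, beside 0.01 over 14250 genes tested, of which 66.9% were called, 33.5% higher and 33.4% lower. Upper quartile rescaling, which lowered the median of all genes to -0.03, turned this split to 11 higher and 13 lower. MRPL52, found only in mitochondria, had 1685, 1579.8 and 1288 with NS shRNA and 2471, 2257 and 2914 with shRNA #2, a log2 fold change of 0.75 (SE 0.11, adjusted p = 0.000172, limma). MRPL12 had 5438, 5495 and 4058 and then 8072, 6542 and 9408, a log2 fold change of 0.68 (SE 0.14, adjusted p = 0.00136, limma). The groups did not overlap for either gene, although the libraries of each group were widely spread. MRPL20, needed early in assembly of the bacterial large subunit, rose by 0.56 (adjusted p = 0.000674, limma), and MRPL21 by 0.54 (adjusted p = 0.00131, limma). MRPL36 rose by 0.46 (adjusted p = 0.000271, limma). MRPL10 and MRPL2, the largest rises with shRNA #1, had log2 fold changes of 0.15 (adjusted p = 0.0515, limma) and 0.12 (adjusted p = 0.104, limma).

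MRPL43, a mitochondria-specific protein with a thioredoxin-like fold, fell most in the large subunit with shRNA #2. It had 2321, 2249.9 and 2145 with NS shRNA and 1125, 1160.3 and 1240.3 with shRNA #2, a log2 fold change of -0.93 (SE 0.06, adjusted p = 7.54e-07, limma) or 1.90-fold lower. With shRNA #1 the values were 1839, 1811 and 1779 against 2151, 2073 and 1989.6, a log2 fold change of -0.19 (SE 0.05, adjusted p = 0.00795, limma). The knockdown libraries lay below the NS libraries in both tables. MRPL54 had 901, 888 and 721 and then 549, 525 and 629, a log2 fold change of -0.56 (SE 0.11, adjusted p = 0.000829, limma). MRPL23 fell again, from 206, 193 and 188 to 132, 137 and 155, a log2 fold change of -0.47 (SE 0.12, adjusted p = 0.00426, limma). MRPL38 fell by 0.46 (adjusted p = 0.0026, limma). MRPL16 and MRPL34, which fell with shRNA #1, had log2 fold changes of -0.16 (adjusted p = 0.136, limma) and 0.01 (adjusted p = 0.941, limma).

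In the small subunit, 12 of 29 genes were higher with shRNA #2, 4 were lower and 13 did not pass, with a median log2 fold change of 0.13. Among all genes tested the shares were 33.5% higher and 33.4% lower. MRPS25 had 1731, 1563 and 1579.8 with NS shRNA and 2925, 2926 and 2978 with shRNA #2, a log2 fold change of 0.86 (SE 0.06, adjusted p = 8.51e-07, limma) or 1.81-fold higher. MRPS10 had 3733, 3749 and 3761 and then 5246, 5524 and 5286, a log2 fold change of 0.51 (SE 0.05, adjusted p = 8.34e-06, limma). Both genes thus lay above the NS range with either hairpin. MRPS35 rose by 0.49 and MRPS30 by 0.36 (adjusted p = 3.8e-05 and 0.000637, limma). MRPL44, MRPL53, MRPS16 and MRPS35 stand outside the rule by which members were chosen for naming and were added after their values were seen.

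The 4 small subunit genes that fell with shRNA #2 were MRPS36, MRPS11, MRPS22 and MRPS18A. MRPS36, listed under its old symbol and now assigned to the 2-oxoglutarate dehydrogenase complex, had 887, 872 and 1067 with NS shRNA and 399, 588 and 404 with shRNA #2, a log2 fold change of -1.04 (SE 0.14, adjusted p = 9.73e-05, limma). MRPS11, a platform protein homologous to bacterial S11, had 851, 834 and 837 and then 449.6, 507 and 455, a log2 fold change of -0.84 (SE 0.08, adjusted p = 4.84e-06, limma). With shRNA #1, MRPS11 had 857, 792 and 719.7 against 789, 768 and 776, which overlap. MRPS22 had 1702, 1841 and 1607 and 1324, 1183 and 1289 in the shRNA #2 table, a log2 fold change of -0.44 (SE 0.07, adjusted p = 0.000365, limma). MRPS18A passed narrowly at -0.16 (adjusted p = 0.0497, limma), and this call was lost without any 1 of the 6 libraries, with the replicate block (adjusted p = 0.151, limma), and by edgeR and DESeq2 (adjusted p = 0.0514 and 0.0536). Over both subunits 46 of 77 genes did not overlap the NS libraries, 30 higher and 16 lower, beside 70% of all genes tested (35.1% higher and 34.8% lower).

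MRPS6 was the member with the largest change in opposite directions. Its normalized counts were 13380.5, 12106 and 10962 with NS shRNA and 7174, 7604 and 8504 with shRNA #1, a log2 fold change of -0.65 (SE 0.08, adjusted p = 8.87e-05, limma) or 1.56-fold lower. In the other table they were 14438, 13142 and 11819 with NS shRNA and 29847, 29329 and 32489 with shRNA #2, a log2 fold change of 1.22 (SE 0.07, adjusted p = 3e-07, limma) or 2.33-fold higher. Every shRNA #1 library lay below and every shRNA #2 library above the NS range. MRPS6 made up 18.6% to 20.6% of the summed normalized counts of the small subunit with NS shRNA, 11.6% to 12.7% with shRNA #1 and 33.1% to 33.8% with shRNA #2. The gene (chr21:34073224-34143034, hg38, plus strand, 3 exons in the canonical transcript) shares its RefSeq start and promoter window with SLC5A3, which encodes a sodium-coupled myo-inositol transporter. Exons of SLC5A3 cover 18.1% of the canonical exons of MRPS6 in GENCODE v44. The 30 bases just before the shared start are shown because they belong to both genes, and the 250 bases before that start hold 9 matches to GGGCGG on either strand.
MRPS6 and SLC5A3, chr21:34073548-34073577 (plus strand): tttaagcccgggctcgcgctctcggaccgt

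SLC5A3 moved in the same directions as MRPS6. It had 16611, 19430.4 and 20518 with NS shRNA and 7119, 6999 and 6219.7 with shRNA #1, a log2 fold change of -1.47 (SE 0.08, adjusted p = 4.55e-07, limma). In the shRNA #2 table it had 17924, 21092 and 22122 and then 81220.2, 79766 and 72938, a log2 fold change of 1.94 (SE 0.08, adjusted p = 2.43e-08, limma). Both changes of SLC5A3 were larger than those of MRPS6 on the log2 scale. By the methods, HTSeq ran on UCSC gene models with its default settings apart from strand, and by default a read that overlaps exons of more than 1 gene on the counted strand is left out of all of them. Whether those gene models hold the same shared exons was not tested, nor was the part of SLC5A3 reads in the MRPS6 counts. MRPL42 was the other member called in opposite directions, at -0.24 (adjusted p = 0.00581, limma) with shRNA #1 and 0.27 (adjusted p = 0.00328, limma) with shRNA #2. It had 2219, 2476 and 2462 with NS shRNA and 2105, 1991 and 1964 with shRNA #1, against 2394, 2688 and 2655 and 2994, 3206 and 3124 in the other table.

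**Figure D4:**
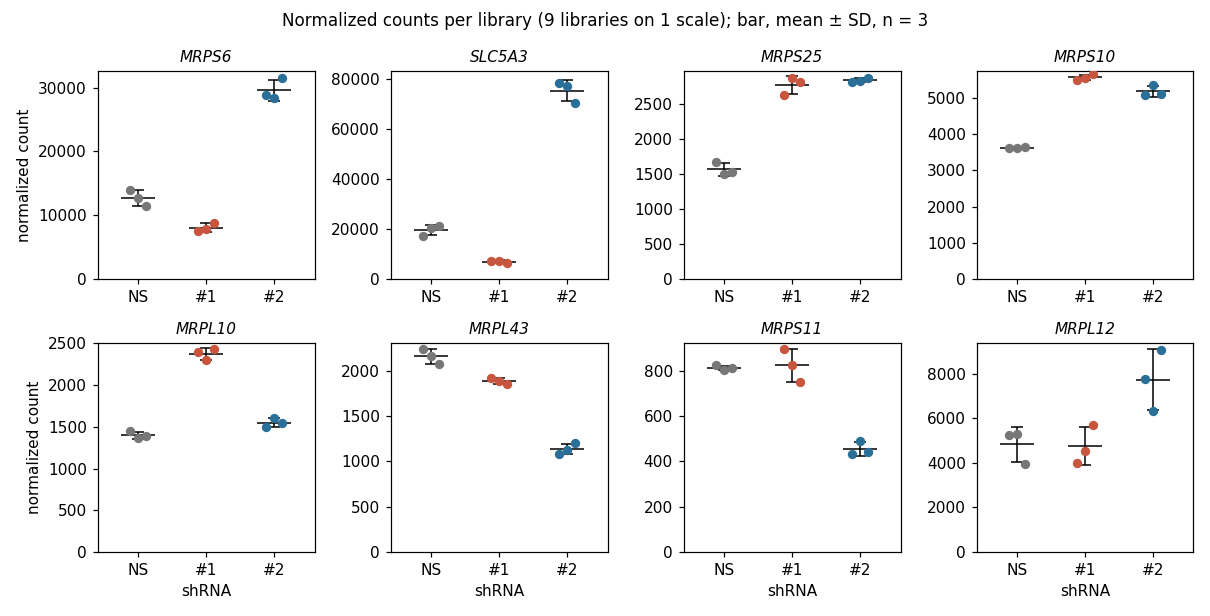
Normalized counts (vertical axes, all 9 libraries on 1 scale) of 7 members and of SLC5A3, 1 point per library, with the mean ± SD of the 3 libraries of each group. MRPS6 and SLC5A3 lie below NS shRNA with shRNA #1 and above it with shRNA #2, MRPS25 and MRPS10 lie above NS with both hairpins, and MRPS11 and MRPL12 lie apart from NS only with shRNA #2, where MRPS11 is lower and MRPL12 higher.

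MRPS24 had the largest log2 fold change of any member, on very few reads. Its normalized counts were 15.8, 10.7 and 9.95 with NS shRNA and 45.3, 52.5 and 38.8 with shRNA #2, a log2 fold change of 1.84 (SE 0.27, adjusted p = 0.000151, limma) that the pseudocount of 1 makes smaller. With shRNA #1 they were 26.7, 19.3 and 15.4 against 14.7, 9.81 and 9.23, a log2 fold change of 0.80 (SE 0.32, adjusted p = 0.0508, limma). The libraries did not overlap in either table, yet shRNA #1 missed the threshold. A readthrough gene, URGCP-MRPS24, covers 90.9% of the canonical exons of MRPS24 and was listed at 0 in all 9 libraries. The neighbouring gene URGCP had log2 fold changes of 0.36 and 0.80 (adjusted p = 0.000449 and 1.04e-06, limma). Exons of CCDC142 likewise cover 99.2% of MRPL53, which had log2 fold changes of -0.16 and -0.08 (adjusted p = 0.236 and 0.652, limma). The part of shared exons in these counts was not tested.

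The hairpins were compared with each other on the recovered reads of all 9 libraries by edgeR's quasi-likelihood test. Of the large subunit genes, 12 were higher and 13 lower with shRNA #2 than with shRNA #1, with a median log2 ratio of 0.01. Of the small subunit genes, 9 were higher and 8 lower, with a median of 0.08. Over all 14360 genes tested, 64% were called, 31.4% higher and 32.6% lower, with a median of -0.01. Upper quartile rescaling moved that median to -0.08 and the members to 9 higher and 15 lower in the large and 6 higher and 10 lower in the small subunit. The count of 8 lower small subunit genes became 5 without shRNA #1 replicate 2, shRNA #1 replicate 3 or shRNA #2 replicate 1. MRPS6 had the largest ratio, 1.85 (SE 0.08, adjusted p = 1.14e-08, edgeR), followed by MRPS24 at 1.05 (SE 0.25, adjusted p = 0.0036, edgeR). MRPL12 and MRPS26 were also higher with shRNA #2, by 0.69 and 0.66 (adjusted p = 0.00252 and 0.000359, edgeR).

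Lower with shRNA #2 than with shRNA #1 were MRPS11 at -0.87 (SE 0.08, adjusted p = 1.84e-06, edgeR), MRPS36 at -0.82 (SE 0.16, adjusted p = 0.000821, edgeR) and MRPL43 at -0.75 (SE 0.06, adjusted p = 5.62e-07, edgeR). MRPL10 and MRPL2, which rose with shRNA #1, had ratios of -0.63 (adjusted p = 1.19e-06, edgeR) and -0.57 (adjusted p = 6.91e-06, edgeR). For MRPS25 the ratio was 0.02 (SE 0.06, adjusted p = 0.726, edgeR), a difference within the standard error. The libraries of the hairpins did not overlap for 44 of the 77 genes, 24 higher and 20 lower, beside 67.6% of all genes tested (33.9% higher and 33.7% lower). Less ASAH1 was left with shRNA #2 (log2 ratio -0.89 (SE 0.05, adjusted p = 6.98e-08, edgeR)).

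Most members changed by little. With shRNA #1, 85.7% of the 77 genes had a log2 fold change between -0.5 and 0.5, beside 62.8% of all genes tested, and with shRNA #2 the shares were 84.4% and 59.4%. No member reached a log2 fold change of 1 in either direction with shRNA #1, where 12.4% of all genes did. With shRNA #2, 3 members did (MRPS24, MRPS6 and MRPS36), beside 14.1% of all genes. The middle 50% of the large subunit genes lay between -0.18 and 0.26 with shRNA #1 and between -0.16 and 0.21 with shRNA #2, and that of the small subunit between -0.22 and 0.31 and between -0.03 and 0.28. Over all genes these ranges were -0.36 to 0.37 and -0.42 to 0.38. Over cytosolic ribosomal protein genes they were -0.08 to 0.24 and 0.04 to 0.45. Over nuclear genes for oxidative phosphorylation subunits they were -0.39 to -0.03 and -0.44 to 0.10. A range narrower than that of all genes was thus not particular to the members, and the part of read level in it was not tested. The summed normalized counts of the 48 large subunit genes were 81215 to 92374 with NS shRNA and 86193 to 96201 with shRNA #1, and in the other table they were 87566 to 99676 with NS shRNA and 96105 to 109498 with shRNA #2. These groups overlapped in both tables. The summed small subunit counts were 59064 to 65055 with NS shRNA and 61799 to 66787 with shRNA #1, which overlap, and 63683 to 70197 with NS shRNA and 88514 to 96092 with shRNA #2, which do not. Without MRPS6 the summed small subunit counts were 48102 to 51675 with NS shRNA and 54625 to 58283 with shRNA #1, then 51864 to 55759 and 59186 to 63603 in the shRNA #2 table, with no overlap in either. MRPS6 was left out with its values known, and no large subunit gene was left out in this way. A sum is weighted to genes with many reads and does not show a rise of the subunit's genes in general. The median log2 fold change over all 29 small subunit genes was 0.04 with shRNA #1 and 0.13 with shRNA #2.

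**Figure D5:**
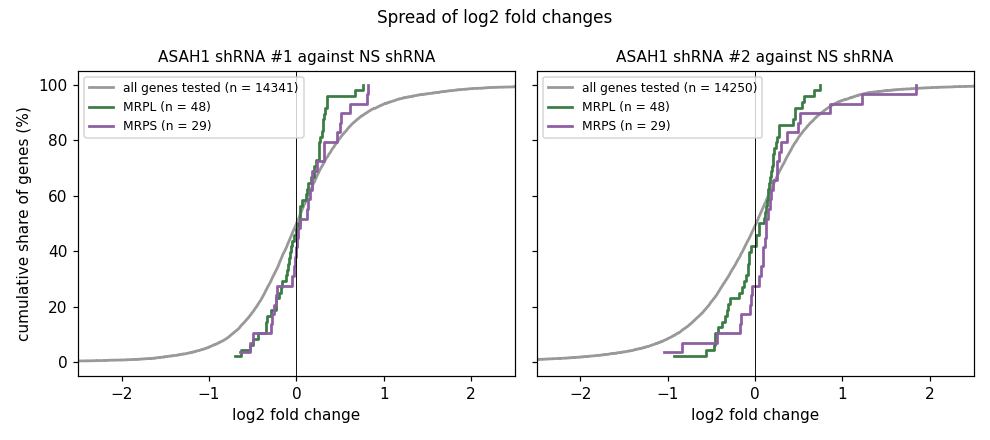
Cumulative share (%) of genes at or below each log2 fold change for the 48 MRPL genes (green), the 29 MRPS genes (purple) and all genes tested (grey), with ASAH1 shRNA #1 on the left and #2 on the right. The member curves are steeper than the grey curve around 0, since 85.7% and 84.4% of the 77 genes lie between -0.5 and 0.5, beside 62.8% and 59.4% of all genes tested.

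Members were also split by a list of proteins with a bacterial counterpart, which holds MRPS18C but not MRPS18A or MRPS18B. In the large subunit, the 30 with a counterpart had 12 higher and 6 lower with shRNA #1 (median 0.11), and the 18 without had 4 higher and 4 lower (median -0.09). With shRNA #2 the counts were 11 higher and 6 lower (median 0.14), against 4 higher and 4 lower (median -0.07). In the small subunit, the 16 with a counterpart had 5 higher and 3 lower with shRNA #1 (median 0.07), and the 13 without had 6 higher and 3 lower (median 0.04). With shRNA #2 these became 6 higher and 1 lower (median 0.12), against 6 higher and 3 lower (median 0.18). Of all genes tested, 32.8% were higher and 33.3% lower with shRNA #1, and 33.5% and 33.4% with shRNA #2. The differences between these classes were not tested.

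Some symbols do not match the place of the protein. MRPS18A, MRPS18B and MRPS18C are paralogs of each other and homologues of bacterial S18, although the split above counted only MRPS18C as having a counterpart. MRPS18A and MRPS30 are now placed in the large subunit. MRPS18A had log2 fold changes of 0.01 and -0.16, MRPS18B of 0.51 and 0.04, and MRPS18C of 0.13 and -0.06 with shRNA #1 and #2. Of these, MRPS18B passed with shRNA #1 and MRPS18A with shRNA #2. MRPS18B had 2250.1, 2034 and 2055 with NS shRNA and 3009.9, 3042 and 2952 with shRNA #1, and 2428, 2208 and 2216 and 2268, 2340.1 and 2459 in the other table. It thus lay above the NS range with shRNA #1, and its groups overlapped with shRNA #2. With MRPS18A and MRPS30 counted in the large subunit and MRPS36 left out, the count of lower small subunit genes with shRNA #2 became 2. MRPS12, the homologue of the S12 decoding protein, had log2 fold changes of -0.01 (adjusted p = 0.902, limma) and 0.25 (adjusted p = 0.0105, limma).

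Of the mitoribosomal proteins, 6 have no MRPL or MRPS symbol. Of these, 2 were higher and 1 lower with shRNA #1, and 4 were higher and 1 lower with shRNA #2. Among all genes tested, 66.1% were called with shRNA #1 and 66.9% with shRNA #2. DAP3, a GTP-binding protein of the small subunit, had 4474, 4529 and 4100.2 with NS shRNA and 6599, 6824 and 7483 with shRNA #1, a log2 fold change of 0.67 (SE 0.06, adjusted p = 9.97e-06, limma). With shRNA #2 it had 7314, 7011 and 7916 against 4828, 4916 and 4421, a log2 fold change of 0.65 (SE 0.06, adjusted p = 8.33e-06, limma). It lay above the NS range with both hairpins. ICT1, a peptidyl-tRNA hydrolase built into the large subunit, rose by 0.62 and 0.21 (adjusted p = 3.31e-05 and 0.0331, limma). AURKAIP1 was lower with shRNA #1 at -0.37 and CHCHD1 with shRNA #2 at -0.47 (adjusted p = 0.0208 and 0.00606, limma).

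Genes that build the mitochondrial ribosome moved both ways. Of 22 assembly factors, 10 were higher and 8 lower with shRNA #1 (median log2 fold change 0.16), and 6 were higher and 6 lower with shRNA #2 (median 0.02), beside 32.8% higher and 33.3% lower of all genes tested with shRNA #1 and 33.5% and 33.4% with shRNA #2. GTPBP10, a GTPase of large subunit assembly, had 1013, 1084 and 1096 with NS shRNA and 2943, 2888 and 2702 with shRNA #1, a log2 fold change of 1.42 (SE 0.06, adjusted p = 7.37e-08, limma). In the other table it had 1093, 1177 and 1182 and 2486, 2732 and 2453, a log2 fold change of 1.15 (SE 0.07, adjusted p = 2.35e-07, limma). No libraries overlapped. NSUN4, an rRNA methyltransferase, rose by 1.01 and 0.55 (adjusted p = 1.53e-06 and 0.000291, limma). MTG1, another assembly GTPase of the large subunit, had 1392, 1388 and 1237 with NS shRNA and 487, 371 and 488 with shRNA #2, a log2 fold change of -1.58 (SE 0.11, adjusted p = 7.23e-07, limma), beside -0.28 with shRNA #1. METTL17, a factor of small subunit assembly, fell by 0.71 with shRNA #1 and by 0.43 with shRNA #2 (adjusted p = 2.71e-06 and 8.46e-05, limma). Of 13 translation factors, 4 were higher and 3 lower with shRNA #1, and 4 were higher and 4 lower with shRNA #2. MRRF, the recycling factor, rose by 0.68 and 0.19 (adjusted p = 7.35e-06 and 0.0325, limma), and MTFMT, which formylates the initiator tRNA, fell by 0.39 and 0.83 (adjusted p = 0.00245 and 2.72e-05, limma).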

How the data were processed

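RNA of 9 MDA-MB-231 libraries was sequenced, 3 per group, from strand-specific libraries of poly(A) RNA. Per the submitters' processing notes and the methods, the authors used Trimmomatic 0.36 for trimming, STAR 2.7.1a for alignment to hg38 and HTSeq for strand-specific counts per gene, and scaled them by the size factors of DESeq2 1.28. The deposited signal is this normalized count for 26485 genes, in 1 table per ASAH1 hairpin. Beside it the authors deposited a log2 fold change with its error, a Wald score, a p-value and an adjusted p-value of their own test, which were not used. Another paragraph of the methods names RSEM and edgeR. Date conversion had altered 28 symbols of 1 table, which were taken from the other table. All columns were matched to a library (0 unmatched).

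Reads were recovered as whole numbers within 0.01 reads, with 0 differences for NS shRNA between tables. The software was limma 3.58.1, DESeq2 1.42.0 and edgeR 4.0.16 under R 4.3.3, with matplotlib 3.10.9 and pandas 2.3.3 under Python 3.11.15. Values were taken as log2(normalized count + 1), and limma (intensity trend, two-sided) tested each hairpin against NS shRNA within its table, for genes whose mean was 10 or more, with Benjamini-Hochberg adjustment over all genes tested and a threshold of 0.05. Fold changes are on that log2 scale and understate the change of low genes. For shRNA #2 against #1, TMM scaling and the quasi-likelihood test of edgeR were applied to the reads of all 9 libraries. The fits were tested on simulated data. For 3 libraries against 3, an exact permutation test cannot go below 0.1. Named were the 4 largest changes each way per comparison and subunit among genes past the threshold (between the hairpins, over both subunits), members called in opposite directions, MRPS18A, MRPS18B, MRPS18C, MRPS30, MRPS36, MRPL12 and MRPS12, and in other lists at most 2 each way. The members and lists were chosen with earlier results of these data known. Alternative settings changed the pseudocount (0.1 or 5), the filter (none, or a mean of 50), the trend (none), the scaling (upper quartile), the tool (edgeR, DESeq2, or limma over all 9 libraries), and the design (replicate number as block, single libraries left out), besides removal of a length and GC trend (loess, span 0.3), and subunits by structure. Positions and lengths come from GENCODE v44 and promoter windows from RefSeq.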

Additional observations from a re-analysis of the deposited data

Results flagged for a closer look

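In 23 members the effects of the hairpins against the same NS shRNA libraries differed, by edgeR's quasi-likelihood test of shRNA #2 against shRNA #1 (adjusted p below 0.05). The members examined are the 33 whose fold changes are named by the rule or were added to it, so their number is no rate. By the same test, 64% of all genes tested and 54.5% of the 77 members were called. Higher with shRNA #2, as log2 ratios, were MRPS6 (1.85), MRPS24 (1.05), MRPL12 (0.69), MRPS26 (0.66), MRPL16 (0.54), MRPL44 (0.53), MRPL42 (0.50), MRPL34 (0.49), MRPL20 (0.44), MRPL52 (0.43), MRPS12 (0.24) and MRPS35 (0.17). Lower with shRNA #2 were MRPS11 (-0.87), MRPS36 (-0.82), MRPL43 (-0.75), MRPL10 (-0.63), MRPL2 (-0.57), MRPL54 (-0.56), MRPS16 (-0.51), MRPS18B (-0.47), MRPS18C (-0.19), MRPS18A (-0.18) and MRPS10 (-0.11). The calls of MRPS12 and MRPS35 were lost under upper quartile rescaling (adjusted p = 0.0653 and 0.182, edgeR). That of MRPS10 was lost without the filter and with the replicate block (adjusted p = 0.139 and 0.0826, edgeR). The pseudogene MRPL45P2, outside the member rule, was higher with shRNA #1 than with NS shRNA by a log2 fold change of 0.77 (SE 0.21, adjusted p = 0.00867, limma). It had 41.9, 28.5 and 44.3 with NS shRNA and 73.5, 62.7 and 58.6 with shRNA #1, and reads of a pseudogene cannot be told apart with certainty from those of its parent gene, here MRPL45 at 0.20 (adjusted p = 0.0307, limma).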

How the results depend on the processing

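Of 18 summary values (higher, lower and median, per subunit and comparison), 11 kept their sign and stayed within 1.5 times (counts) or 1 SD between replicates (medians) under every alternative run. The causes of the other changes were not tested. The large subunit median with shRNA #1 (0.03) was -0.0451 with the length and GC trend removed and -0.00928 to 0.0468 with each library left out. That between the hairpins (0.01) was -0.0693 under upper quartile rescaling, -0.00747 when genes under a mean of 50 were dropped, and -0.0301 to 0.0694 with each library left out. With each library left out, the small subunit genes lower with shRNA #1 ranged from 3 to 7 (6 with all libraries) and those lower with shRNA #2 than with shRNA #1 from 5 to 8 (8 with all libraries). The median small subunit ratio between the hairpins was 0.0016 under upper quartile rescaling, against 0.08. With subunits taken by structure, 2 small subunit genes were lower with shRNA #2. The replicate number as a block gave 7 higher small subunit genes with shRNA #1, against 11, and changed no other count by over 1.5 times. Same-numbered libraries of NS shRNA and a hairpin did not deviate together (correlations -0.345, -0.23 and -0.498 with shRNA #1, -0.13, -0.362 and -0.597 with shRNA #2). With 3 libraries per group these values cannot settle whether the numbers pair NS with knockdown libraries. Between the hairpins these correlations were positive (0.074, 0.227 and 0.444), and whether the numbers pair those libraries was not settled. Of the named members' 67 calls, 58 were kept under every alternative with a test and 60 under every one but the leaving out of libraries, and none reversed. Log2 values that changed sign were all of genes not called in that comparison. Under upper quartile rescaling these were MRPL34 with shRNA #2 (-0.0393), MRPL54 with shRNA #1 (0.000836), MRPS18B with shRNA #2 (-0.000233) and MRPS25 between the hairpins (-0.0525). With the length and GC trend removed they were MRPL12 (0.153), MRPL54 (0.0868), MRPS11 (-0.00252) and MRPS12 (0.0508) with shRNA #1 and MRPL53 (0.0189) with shRNA #2. With each library left out the ranges for shRNA #1 were -0.167 to 0.089 (MRPL12), -0.0022 to 0.188 (MRPL20), -0.111 to 0.0494 (MRPL54), -0.0432 to 0.0827 (MRPS11), -0.0707 to 0.0321 (MRPS12) and -0.0224 to 0.053 (MRPS18A). For shRNA #2 they were -0.0366 to 0.0495 (MRPL34), -0.201 to 0.0595 (MRPL53), -0.099 to 0.0058 (MRPS16) and -0.124 to 0.0296 (MRPS28), and between the hairpins -0.037 to 0.212 (MRPL53) and -0.0129 to 0.0499 (MRPS25). A trend over transcript length and GC content held 2.32% and 2.80% of the variance of log2 fold changes with shRNA #1 and #2. Few reads limit MRPS24 and MRPL23, and exons shared with other genes limit MRPS24, MRPL53 and MRPS6.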

Other observations

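Of 14 genes that maintain and transcribe mitochondrial DNA, 11 were higher and 1 lower with shRNA #1 (median log2 fold change 0.35), and 7 were higher and 4 lower with shRNA #2 (median 0.19). Of all genes tested, 32.8% were higher and 33.3% lower with shRNA #1, and 33.5% and 33.4% with shRNA #2, and the difference from these lists was not tested. PNPT1, the mitochondrial polynucleotide phosphorylase, had 1363, 1350.4 and 1440.3 with NS shRNA and 2325, 2293 and 2145 with shRNA #1, a log2 fold change of 0.70 (SE 0.06, adjusted p = 4.13e-06, limma), and 0.83 with shRNA #2. LRPPRC, which stabilizes mitochondrial messenger RNAs, rose by 0.50 and 0.98 (adjusted p = 5.5e-06 and 8.72e-08, limma). POLG, the mitochondrial DNA polymerase, fell by 0.85 and 0.76 (adjusted p = 3.84e-07 and 8.29e-07, limma). SUPV3L1, an RNA helicase, was called in opposite directions, at 0.28 and -0.72 (adjusted p = 0.00113 and 6.96e-06, limma). So was TFAM, which stands outside the naming rule, at 0.32 and -0.23 (adjusted p = 0.000306 and 0.00354, limma).

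Of 9 regulators of mitochondrial biogenesis, 5 were higher with shRNA #1 and 6 with shRNA #2. With either hairpin 0 were lower by limma, edgeR or DESeq2 at an adjusted p below 0.05. At an unadjusted p below 0.05, 1 was lower with shRNA #1 by edgeR and 0 by limma or DESeq2, and 0 were lower with shRNA #2 by any of them. MYC, a transcription factor of growth, rose by 1.40 and 0.32 (adjusted p = 1.16e-08 and 0.0005, limma). PPRC1, a coactivator of the PGC-1 family, rose by 1.10 and 0.38 (adjusted p = 2.36e-07 and 0.000525, limma), and YY1 by 0.29 and 0.92 (adjusted p = 0.00043 and 3.11e-07, limma). NRF1 had log2 fold changes of -0.04 and -0.01 (adjusted p = 0.605 and 0.937, limma). Of 85 cytosolic ribosomal protein genes tested, 27 were higher and 8 lower with shRNA #1 (median 0.06), and 38 were higher and 9 lower with shRNA #2 (median 0.18). Of 79 nuclear genes for oxidative phosphorylation subunits tested, 5 were higher and 35 lower with shRNA #1 (median -0.21), and 10 were higher and 36 lower with shRNA #2 (median -0.18), beside the same shares of all genes tested, 32.8% and 33.3% with shRNA #1 and 33.5% and 33.4% with shRNA #2. The members' medians were 0.03 and 0.07 in the large and 0.04 and 0.13 in the small subunit, and differences between the lists were not tested. Of 4 MRPL and MRPS pseudogenes and antisense transcripts, 2 were tested with each hairpin, and MRPS31P5 was lower with shRNA #2 at -0.51 (adjusted p = 0.0277, limma).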
